A study of Arabidopsis thaliana with 18 samples.

Results

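In shoots of Arabidopsis thaliana seedlings that lack normal CURLY LEAF (CLF) function, 170 genes were highly expressed and lay under H3K27me3 peaks at once. They were chosen by their measured values. Each had peaks over at least 200 bp of its gene body in each of 3 clf peak lists and at least 20 RPKM (reads scaled to gene length and to library size) in all 9 clf mRNA libraries. They are 170 of the 32248 genes that had both an RPKM value and a position on chromosomes 1 to 5. Of these genes, 4818 (14.94%) were covered in all 3 clf lists and 4482 (13.899%) reached 20 RPKM in all 9 libraries. The 170 genes are thus 3.528% of the covered genes and 3.793% of the highly expressed ones. Their coverage in clf and their high level follow from the choice and are described without a test.

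The study compared the accessions Col and C24 with their F1 hybrid, and the libraries came from shoots of 14-day-old seedlings grown on sucrose plates in short days. mRNA was sequenced from C24 clf, clf F1 and Col clf with 3 libraries each, and wild-type mRNA was not analysed here. H3K27me3 was mapped by ChIP-seq with 1 library each in C24 clf, clf F1 and Col clf, and with 2 each in wild-type C24, F1 and Col. C24 clf carries an EMS-induced change of an aspartate to asparagine in the SET domain of CLF, Col clf carries a T-DNA insertion (SALK_139371), and clf F1 is the hybrid of these lines. Each accession carries its own clf allele, so an effect of accession and an effect of allele cannot be told apart.

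H3K27me3 is trimethylation of lysine 27 on histone H3. It is laid down by Polycomb repressive complex 2, of which CLF is a catalytic subunit, and it is known chiefly from silent genes, such as floral regulators in leaves. In plants it often spreads over whole gene bodies. Whole shoots mix epidermis, mesophyll, veins and growing tips, so a gene can be marked in some cells and transcribed in others, and peaks and mRNA from whole shoots do not show whether both sit in the same cell. For the same reason, fewer cells of a type and less RNA per cell cannot be told apart in any level below.

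CLF mRNA had 7.2, 7.14 and 8.35 RPKM in C24 clf, 4.35, 3.93 and 4.08 RPKM in clf F1 and 1.21, 0.99 and 1.37 RPKM in Col clf. The groups did not overlap, with C24 clf highest and Col clf lowest. All 7 markers of green shoot tissue reached 20 RPKM in every library and none was covered in the 3 clf lists. Of 8 root markers, 7 stayed below 1 RPKM in every library, and the remaining one, PYK10, is among the 170 genes. The H3K27me3 lists also differed in extent: the clf lists covered 11.8 to 12.5 Mb, the first wild-type lists 15.6 to 16.7 Mb and the second wild-type lists 4.29 to 8.06 Mb. No list held a peak longer than 9312 bp, so a missing peak in a list does not show that the mark is missing.

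Marked genes were mostly weakly expressed, and the 170 genes form a small upper end of them. Of the 4818 genes covered in all 3 clf lists, 3169 (65.774%) were below 1 RPKM in all 9 libraries. Among genes with a mean below 1 RPKM, 23.043% were covered, and among those from 1 to 5 RPKM 15.086%. The share was 5.771% from 5 to 20 RPKM, 4.614% from 20 to 50 RPKM, 4.36% from 50 to 200 RPKM and 4.474% at 200 RPKM or more. The share of covered genes therefore differed little between the 3 highest level classes. The extent of the mark took another course. Covered genes had a median of 97.8% of the gene body under peaks below 1 RPKM, 72.2% from 20 to 50 RPKM, 85.9% from 50 to 200 RPKM and 96.6% at 200 RPKM or more. The highest class held only 20 covered genes. The covered genes of the 3 highest classes also became shorter, with median lengths of 2243, 1949 and 1555.5 bp. The part of length in the extent was not tested.

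**Figure D1:**
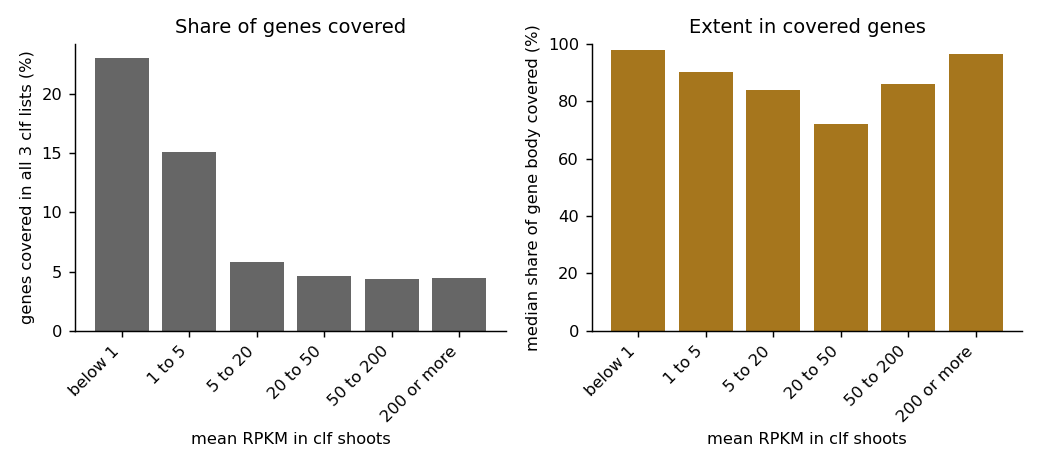
Left, the percentage of genes with at least 200 bp under peaks in all 3 clf lists, by mean RPKM of the gene in clf shoots. Right, the median percentage of the gene body under peaks in those covered genes. Coverage is most frequent below 1 RPKM (23.043%), and the extent is lowest from 20 to 50 RPKM (72.2%) and higher at 200 RPKM or more (96.6%, 20 covered genes).

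The mean levels of the 170 genes ran from 22.89 to 1807 RPKM with a median of 58.9 RPKM, and 51 of them exceeded 100 RPKM. All 4482 highly expressed genes had a median of 49.0 RPKM. Of the 170 genes, 168 are protein coding and 111 carry a gene symbol. By words in symbols and synonyms, cell wall genes made up 7.647% of the 170 genes (13) and 1.406% of all highly expressed genes. Redox and secondary metabolism made up 12.353% (21 genes) and 7.764%, and transport 4.706% (8) and 2.499%. These classes are rough, since a word in a synonym can place a gene wrongly, as it did C/VIF2, an invertase inhibitor, with the cell wall. The words for photosynthesis and plastid found 1 of the 170 genes, COR413IM1, and 4.061% of all highly expressed genes. Those for ribosome and translation found 0 of the 170 and 1.339% of the highly expressed genes. Genes without a telling symbol are missed, so these shares do not show that such genes are lacking among the 170. A further 89 genes of the 170 fell in no such class. Of 10 gene families looked up after the list was known, 5 had all of their highly expressed members, or all but 1, among the 170. These were the KCS family of fatty acid elongases (4 of 5 highly expressed members), the glycosylphosphatidylinositol-anchored lipid transfer proteins (3 of 3), the class IV homeodomain leucine zipper factors of the epidermis (3 of 3), the YABBY factors of lateral organs (2 of 2) and the auxin-responsive SAUR genes (3 of 4). The wider beta-glucosidase family had 5 of its 8 highly expressed members among them. GASA had 2 of 4, the plain lipid transfer proteins 2 of 5, Aux/IAA 2 of 7 and the xyloglucan enzymes (XTH) 2 of 9. At any level, the 3 clf lists covered 7 of 7 YABBY genes, 13 of 17 class IV factors and 15 of 21 KCS genes. They also covered 4 of 6 anchored lipid transfer protein genes and 19 of 79 SAUR genes, beside 14.94% of all genes. Coverage in the YABBY, class IV, KCS and anchored families was thus not particular to their highly expressed members.

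The gene with the highest level was TGG1 (AT5G26000), which with TGG2 (AT5G25980) encodes the myrosinases that hydrolyse glucosinolates, the mustard oil precursors. TGG1 had 1810, 1949 and 1921 RPKM in C24 clf, 2081, 2136 and 2122 RPKM in clf F1 and 1390, 1397 and 1453 RPKM in Col clf. The 3 groups did not overlap, with clf F1 highest and Col clf lowest. All of the TGG1 gene body lay under 1 peak in each clf list, at chr5:9079263-9084054 in C24 clf, chr5:9079323-9083625 in clf F1 and chr5:9079289-9083556 in Col clf (TAIR10). DELTA-TIP (AT3G16240), a water channel of the vacuole membrane, followed with 907.7, 952 and 926.2 RPKM in C24 clf, 1167, 1226 and 1358 RPKM in clf F1 and 1083, 1071 and 1285 RPKM in Col clf. It was covered over 87.4% of its length in C24 clf, 100% in clf F1 and 96.3% in Col clf. The 15 highest genes also held TGG2, the glutathione transferase gene GSTU20, GRP-3 and GRP3S for glycine-rich proteins, PRP4 for a proline-rich wall protein, FBA5 for a fructose-bisphosphate aldolase, MAM1 of glucosinolate synthesis, GASA1 of the gibberellin-regulated peptides, GER3 for a germin-like protein and the genes AT5G44020, AT2G27385, AT5G42530 and AT3G05727. Several of these have close copies or neighbours on which reads could be shared: TGG1 and TGG2, GRP-3 and GRP3S. DELTA-TIP, PRP4, FBA5 and AT5G44020 overlap another annotated gene, as do 33 of the 170 genes in all.

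**Figure D2:**
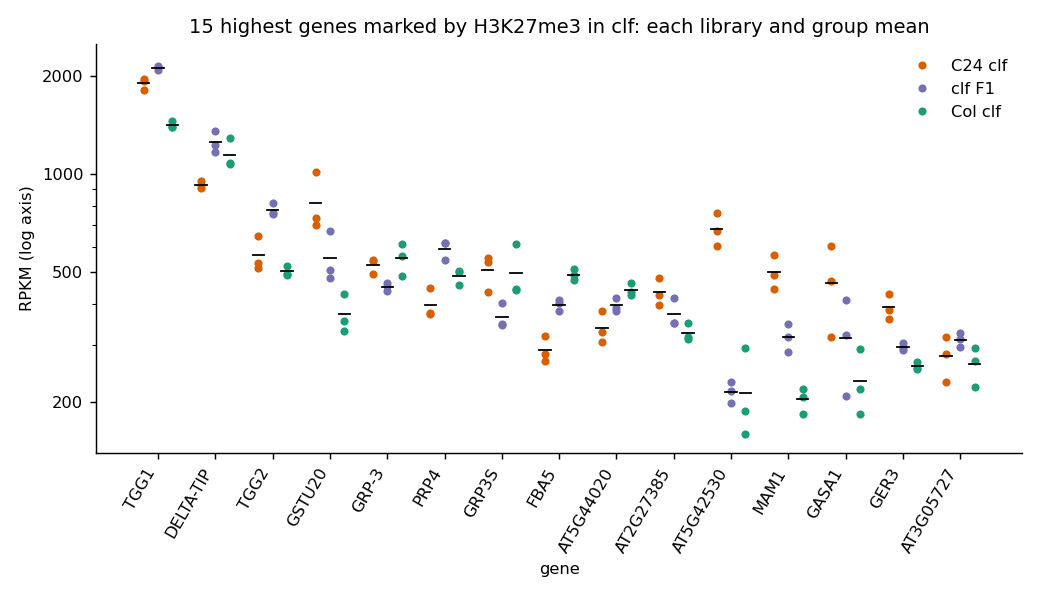
RPKM (log axis) of the 15 covered genes with the highest mean level, with C24 clf, clf F1 and Col clf side by side for each gene. Each point is 1 of 3 libraries per group and each bar the group mean. TGG1 lies highest in clf F1 (2081 to 2136 RPKM), and AT5G42530 and MAM1 lie higher in C24 clf than in Col clf.

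Peaks covered less of these genes than of other marked genes, and some barely reached into them. The median share of the gene body under peaks, taken as the mean over the 3 clf lists, was 76.7% in the 170 genes (quartiles 42.1% and 98.5%) and 96.1% in the other 4648 covered genes. Of the 170 genes, 45 (26.471%) were covered over at least 95% in each clf list, against 2108 (45.353%) of the other covered genes. Coverage below 50% was found in 48 (28.235%) of the 170 genes and in 636 (13.683%) of the other covered genes. In 61 (35.882%) of the 170 genes the same single end of the gene, and not the other, lay under a peak in all 3 lists, against 26.398% of the other covered genes. In 17 neither end was covered in any clf list and the peak lay inside the gene, against 4.518% of the other covered genes with no covered end. The 170 genes were also longer, with a median of 2122.5 bp against 1709.5 bp. Among them, genes covered throughout had a median length of 1312 bp and genes covered below 50% of 3083 bp, and Spearman's rho between length and share covered was -0.58 (170 genes, which share the same lists). Length and level moved with the share covered, and their part in it was not tested.

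Peaks over the 170 genes were not weaker by the authors' own fold enrichment per peak. The median fold enrichment was 5.84 for peaks over the 170 genes and 5.65 for all peaks in C24 clf, 5.72 and 5.45 in clf F1, and 5.16 and 5.05 in Col clf.

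Genes covered throughout included TGG1, TGG2, BBX14 for a B-box zinc finger protein, GASA1, GER3, GRP-3, the dehydrin gene RAB18, the cytochrome P450 gene CYP83A1 and the homeobox gene ANL2. Genes with a short stretch of mark included SCAMP5, a secretory carrier membrane protein, with 7.42% of its length in C24 clf, 9.44% in clf F1 and 8.46% in Col clf. SEC3A, a subunit of the exocyst and 8209 bp long, had 9.29%, 12.1% and 12.5% in the same order of groups. DHAR3, a dehydroascorbate reductase, had 11.5%, 12.8% and 10.4%. Several regulators carried a short stretch of mark that was alike in all 3 lists. BIN2, the kinase of brassinosteroid signalling, was covered over 33.3% in C24 clf, 34.2% in clf F1 and 32.3% in Col clf. MPK4, a mitogen-activated protein kinase of defence signalling, had 32.2%, 34.0% and 33.9%, and the epidermal homeobox gene PDF2 had 27.9%, 28.9% and 27.5%.

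Some peaks over the 170 genes also lay on a neighbour, in shares near those of the other covered genes. In 41 (24.118%) of the 170 genes the same peak covered another gene by the same measure in all 3 lists, against 20.546% of the other covered genes. In 19 (11.176%) the neighbour stayed below 1 RPKM in all 9 libraries, against 12.414% of the other covered genes. Of the 48 genes covered below 50%, 12 shared their peak with such a silent neighbour, among them BIN2, MPK4, DHAR3, SCAMP5, the nascent polypeptide complex gene NACA2 and the glutathione synthetase gene GSH2. The same share was not computed for the other covered genes with coverage below 50%. Of the 41, 6 shared their peak with a neighbour that is itself among the 170 genes. Which end of a gene is its start was not read here, so the covered end is not named.

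**Figure D3:**
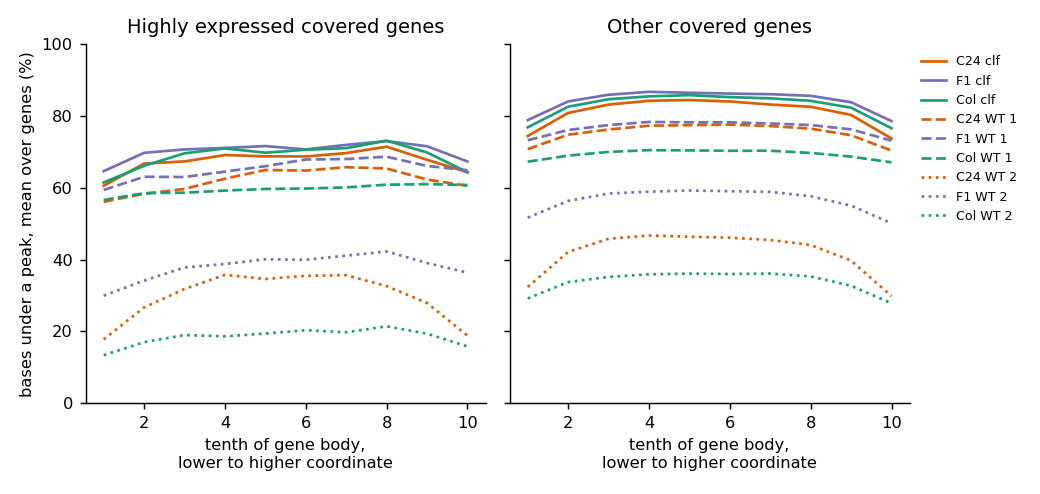
Mean percentage of bases under a peak in each of 10 equal parts of the gene body, from the lower to the higher coordinate, for the 170 highly expressed covered genes (left) and the 4648 other covered genes (right). Solid lines are clf lists, dashed and dotted lines the first and second wild-type lists, coloured by C24, F1 and Col. In the clf lists the 170 genes lie between 60.5% and 73.1%, below the other covered genes in every one of the 10 parts.

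At the edges of the choice, DHAR3 was covered by 201 bp, PMSR4 by 211 bp and SCAMP5 by 220 bp in their least covered clf list, while AT4G26410 with 190 bp, RBX1 with 185 bp and AT3G10130 with 179 bp fell outside. FAH1 with 20.08 RPKM, AT3G63210 with 20.28 RPKM and PGL34 with 20.36 RPKM in their lowest library lay inside, and AT3G06590 with 19.69 RPKM, OFP15 with 19.64 RPKM and DOT2 with 19.61 RPKM lay outside. The number of genes was 108 where 50% of the gene body had to be covered, 319 at 10 RPKM and 75 at 50 RPKM.

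Most of the 170 genes were also marked in wild-type shoots, where no mRNA level was analysed. At least 200 bp lay under peaks in the first wild-type list in 144 of them in C24, 149 in F1 and 130 in Col. In the shorter second lists the numbers were 96 in C24, 92 in F1 and 53 in Col. Both lists held 85 of the 170 genes in C24, 84 in F1 (49.412%) and 46 in Col (27.059%). The other covered genes stood at 57.078% in C24, 60.069% in F1 and 35.994% in Col. In all 6 wild-type lists 35 of the 170 genes (20.588%) were covered, against 28.614% of the other covered genes. Among these 35 were TGG2, SEP3, ESM1, VSP2, BIN2 and ATML1. No test was made between groups with 2 lists each, for which an exact permutation test cannot reach a p below 0.05, and the extent of the second lists moved with these counts.

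**Figure D4:**
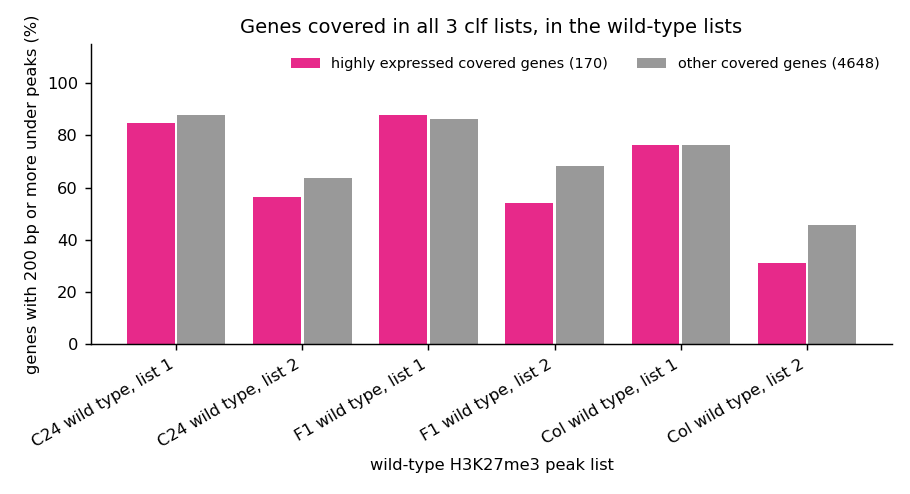
Percentage of genes with at least 200 bp under peaks in each of the 6 wild-type lists, for the 170 highly expressed covered genes and the 4648 other covered genes. In the first lists the 170 genes stand at 84.706% in C24, 87.647% in F1 and 76.471% in Col, and in the second lists they lie below the other covered genes in each group.

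In 6 of the 170 genes (3.529%) no wild-type list had 200 bp under peaks, against 2.625% of the other covered genes. Among them were AT1G09750, AT2G32880, AT3G10720, AT4G17245 and the auxin-responsive SAUR gene AT4G38860. AT4G17245 was covered over its whole length in clf, with peaks at chr4:9669193-9670069 in C24 clf, chr4:9669037-9670119 in clf F1 and chr4:9669153-9670226 in Col clf. A further 7 genes were covered in both wild-type C24 lists and in neither wild-type Col list, among them KCS6, the zinc finger gene IDD4, the major latex protein-like gene MLP43 and the lectin gene JAL22. SEC3A alone showed the opposite, covered in both Col lists and in neither C24 list. A few genes were absent from a first list that is otherwise the longer one: AG, TGG1, AT1G67860 and AT1G67865 were covered in the second wild-type Col list and not in the first. There were 7 such genes in Col, 8 in F1 and 11 in C24. The first wild-type Col list had 122 peaks over 8000 and up to 9000 bp, 11 over 9000 bp and none beyond 9291 bp, and what the lack of longer peaks does to these genes was not tested.

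C24 clf and Col clf differed in 96 of the 170 genes, and in both directions. By limma on log2(RPKM + 1), adjusted over 17819 genes, C24 clf was higher in 50 and lower in 46. That is 29.4% and 27.1% of the 170. The background was 31.8% higher and 12.7% lower among all genes tested, and 27.1% and 12.3% among the 4482 highly expressed ones. The share called higher was thus near the background and the share called lower above it. The median absolute log2 difference was 0.32 in the 170 genes, 0.17 in all highly expressed genes and 0.43 in all covered genes that were tested. With libraries of the same number blocked together, 60 were higher and 56 lower, with all 96 calls kept. Of the called genes, 10 were at least 2-fold higher and 8 at least 2-fold lower. A gene low in any 1 library could not be among the 170, so larger differences between groups are under-represented. The median log2 difference of all genes tested was 0.13 as deposited and 0.01 after quantile normalisation, so differences of about this size depend on the scaling. The transcript AT3G41979, an abundant RNA that takes part of the total to which RPKM refers, also differed: it had 122 to 365 RPKM in C24 clf, 1363 to 16022 RPKM in clf F1 and 2148 to 17796 RPKM in Col clf. Its part in the differences was not tested.

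**Figure D5:**
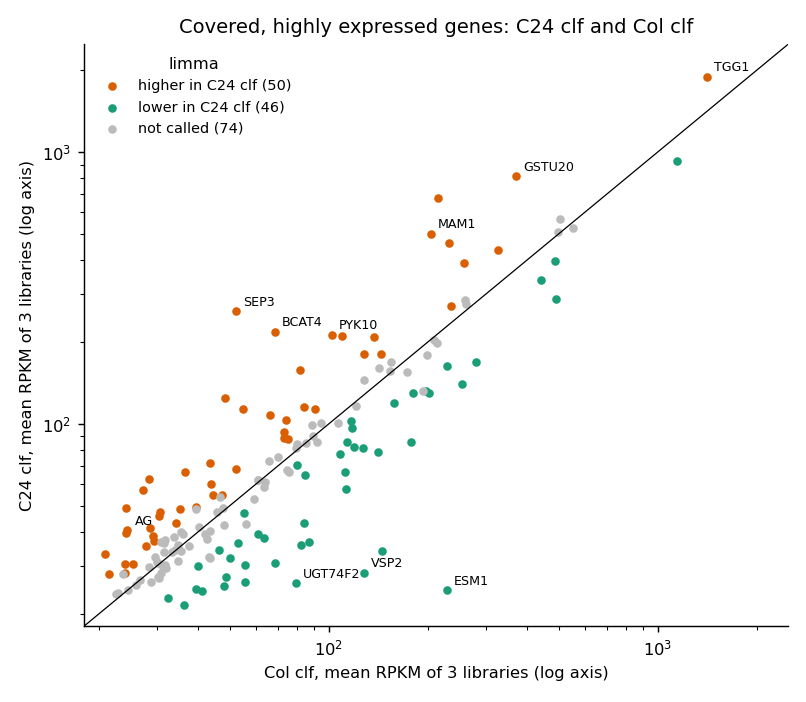
Mean RPKM of 3 libraries in C24 clf against Col clf for the 170 genes, both axes logarithmic, with the line of equality. Genes called higher in C24 clf (50), lower in C24 clf (46) and not called (74) are coloured. SEP3 lies farthest above the line and ESM1 farthest below it.

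The groups of genes below were made by hand after their values were known, so their counts describe these genes and are no test of a pathway. Of 9 genes of glucosinolate synthesis and breakdown, 7 (77.8%) were higher and 1 (11.1%) lower in C24 clf, beside 31.8% and 12.7% of all genes tested. AT2G25450, a gene without a symbol, was left out of these 9 and was lower in C24 clf (log2 difference -0.45 ± 0.17, limma adjusted p = 0.048). Product descriptions were not used, so whether AT2G25450 belongs with the 9 was not tested, and the counts depend on this placing. BCAT4 (AT3G19710), the aminotransferase that starts the elongation of methionine, had 263.4, 190.4 and 199.9 RPKM in C24 clf and 83.79, 68.49 and 53.1 RPKM in Col clf. The groups did not overlap, and the log2 difference was 1.66 ± 0.20 (SE, n = 3 each; limma adjusted p = 4e-05). IPMI2, a subunit of the isomerase of the elongation cycle, had 163.3, 106.2 and 104.7 RPKM in C24 clf and 54.23, 46.64 and 44.09 RPKM in Col clf (log2 difference 1.32 ± 0.16, limma adjusted p = 4.1e-05). MAM1 (AT5G23010), the condensing enzyme of the same cycle, had 566.5, 490.1 and 444.4 RPKM in C24 clf and 220.6, 207.5 and 184.5 RPKM in Col clf, a log2 difference of 1.29 ± 0.10 (limma adjusted p = 1.4e-06). These 3 enzymes act in the same elongation pathway, and clf F1 lay between the parents in each. GSTU20 was 2.17-fold and CYP83A1 1.92-fold higher in C24 clf. PYK10, a beta-glucosidase best known from roots, averaged 213 ± 3.03 RPKM in C24 clf and 102.2 ± 6.94 RPKM in Col clf (SD, n = 3 each), a log2 difference of 1.05 ± 0.07 (limma adjusted p = 3.2e-07). It is the only root marker above 1 RPKM in any library.

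ESM1 (AT3G14210), a modifier of glucosinolate breakdown, went the other way and had the largest difference of the 170 genes. It had 22.82, 28.92 and 21.39 RPKM in C24 clf, 213.7, 219.2 and 211.9 RPKM in clf F1 and 220.2, 249.6 and 215.4 RPKM in Col clf. C24 clf was 9.09-fold lower than Col clf (log2 difference -3.18 ± 0.10, limma adjusted p = 3.4e-10), and clf F1 lay close to Col clf. Peaks covered 85.3% of the ESM1 gene body in C24 clf, 86.1% in clf F1 and 90.2% in Col clf, and all 6 wild-type lists covered it too. Reads were placed on the TAIR10 genome, which is of Col, and the part of sequence differences between the accessions in this value was not tested.

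Of the 27 known targets of Polycomb repressive complex 2 that were looked up, 25 were covered in all 3 clf lists and 2, the floral homeotic genes SEP3 and AG, reached 20 RPKM everywhere. Of 28 genes of the Polycomb machinery, 6 were covered in all 3 clf lists, beside 14.94% of all genes. Only 1 of the 28, VEL1, reached 20 RPKM in all 9 libraries, beside 13.899% of all genes, and it was not covered. None of the 28 was thus among the 170, which says little with so few highly expressed genes in the list. SEP3 (AT1G24260) had 256.3, 239.7 and 284.6 RPKM in C24 clf, 129, 108.3 and 130.3 RPKM in clf F1 and 47.76, 47.21 and 61.47 RPKM in Col clf. The groups were well apart, and C24 clf was 4.94-fold above Col clf (log2 difference 2.30 ± 0.11, limma adjusted p = 1.6e-08), the largest rise among the 170 genes. Its peak was shortest in C24 clf, 2610 bp at chr1:8594140-8596749, against 3269 bp in clf F1 at chr1:8593487-8596755 and 5616 bp in Col clf at chr1:8592194-8597809. AG (AT4G18960) had 40.92, 38.11 and 42.7 RPKM in C24 clf, 36.65, 33.53 and 33.69 RPKM in clf F1 and 24.31, 21.96 and 26.87 RPKM in Col clf. C24 clf was higher than Col clf by 0.72 ± 0.08 on the log2 scale (limma adjusted p = 3.2e-05). Peaks covered 20.4% of AG in C24 clf, 37.6% in clf F1 and 97.7% in Col clf, the widest gap of the 170 genes. There is 1 list per clf group, so these coverage differences have no replicate check.

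Across the 170 genes most differences in coverage were small. The share of the gene body covered differed by at most 10 percentage points between C24 clf and Col clf in 126 genes, was wider in C24 clf by more in 22 and wider in Col clf by more in 22. Spearman's rho between the difference in coverage and the log2 difference in mRNA was -0.12 over the 170 genes, as a description. Genes with wider coverage in Col clf included XTH7, a xyloglucan enzyme of the wall with 39.4% of its length covered in C24 clf and 93.9% in Col clf, whose mRNA was lower in C24 clf (log2 difference -0.64 ± 0.14, limma adjusted p = 0.0037). MYB16, a regulator of the cuticle, had 45.2% covered in C24 clf and 82.3% in Col clf, and its mRNA was higher in C24 clf (0.68 ± 0.09, limma adjusted p = 0.00012). FBA5 was covered over 68.8% in C24 clf and 39.6% in Col clf, and its mRNA was 1.7-fold lower in C24 clf.

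Other transcription factors of development differed less. Of 11 such genes, 3 (27.3%) were higher in C24 clf (SEP3, AG and BBX14) and 1 (9.09%) was lower, both near the background of 31.8% and 12.7%. The lower one was AFO, a YABBY gene of the lower leaf face, with 29.92, 32.59 and 27.39 RPKM in C24 clf and 41.39, 39.2 and 39.6 RPKM in Col clf (log2 difference -0.41 ± 0.08, limma adjusted p = 0.0011). YAB3, its close relative, averaged 27.15 ± 1.69 RPKM in C24 clf and 30.39 ± 1.91 RPKM in Col clf and did not pass (limma adjusted p = 0.14), though it did with the replicate block (adjusted p = 0.027). BBX14 differed by 0.21 on the log2 scale, which is near the shift of all genes.

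Genes of the cuticle and epidermis were higher in C24 clf in 2 of 17 cases (11.8%, beside 31.8% of all genes tested) and lower in 8 (47.1%, beside 12.7%). The KCS enzymes lengthen fatty acids for surface waxes. KCS20 had 27.28, 27 and 27.57 RPKM in C24 clf, 35.14, 40.45 and 35.99 RPKM in clf F1 and 47.3, 48.42 and 50.17 RPKM in Col clf. The 3 groups did not overlap, and C24 clf was 1.75-fold below Col clf (log2 difference -0.81 ± 0.07, limma adjusted p = 2.4e-06). KCS8, KCS10 and KCS6 were also lower in C24 clf, with log2 differences of -0.48, -0.28 and -0.18 (limma adjusted p = 0.00022, 0.0049 and 0.047). LTP5, a lipid transfer protein, averaged 168.7 ± 12 RPKM in C24 clf and 281.1 ± 32.8 RPKM in Col clf. LTPG1 and LTPG2, its membrane-anchored relatives that carry wax lipids, were lower, with log2 differences of -0.62 ± 0.08 and -0.73 ± 0.08. AT1G55260, the other highly expressed member of this anchored family, was placed outside the 17 genes and went the other way. Its log2 difference of 0.20 ± 0.09 did not pass (limma adjusted p = 0.099). With the replicate block it passed (limma adjusted p = 0.011). The cytochrome P450 gene CYP86A2 of cutin synthesis averaged 30.27 ± 2.52 RPKM in C24 clf and 55.44 ± 2.0 RPKM in Col clf. MYB16, which activates cuticle genes, was higher in C24 clf. AT4G13840 of the same group was higher too (log2 difference 0.32 ± 0.08, limma adjusted p = 0.0075). ATML1 and PDF2 are homeobox genes that specify the epidermis, and ANL2 belongs to the same family. ATML1, PDF2 and ANL2 averaged 35.54, 28.27 and 26.11 RPKM in C24 clf and 37.61, 30.87 and 28.69 RPKM in Col clf, and none passed the test. PDF1, an epidermal protein gene and target of ATML1 and PDF2, did not pass either, with 284.4 ± 22.2 RPKM in C24 clf and 259.1 ± 23.1 RPKM in Col clf.

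Of 11 genes of transport and phloem, 4 (36.4%) were higher in C24 clf, near the 31.8% of all genes tested, and 6 (54.5%) were lower, against 12.7%. SUC2, which loads sucrose into companion cells, had 62.67, 67.61 and 68.78 RPKM in C24 clf, 88.94, 92.49 and 94.27 RPKM in clf F1 and 108.5, 112.8 and 115.5 RPKM in Col clf, without overlap (log2 difference of C24 clf and Col clf -0.75 ± 0.06, limma adjusted p = 1.9e-06). SWEET11, the efflux carrier that releases sucrose beside them, had 114, 112.3 and 120.4 RPKM in C24 clf, 92.05, 94.54 and 90.89 RPKM in clf F1 and 82.73, 83.13 and 86.39 RPKM in Col clf. Its difference was 0.45 ± 0.06 (limma adjusted p = 7e-05), opposite to that of SUC2. The phloem lectin gene PP2-A1, the amino acid carrier AAP1 and the water channels DELTA-TIP and PIP2E were lower in C24 clf as well. The vacuolar calcium exchanger CAX1 averaged 210.9 ± 23.6 RPKM in C24 clf and 109.6 ± 14.3 RPKM in Col clf. AUX1, the auxin influx carrier, averaged 48.96 ± 3.52 RPKM in C24 clf and 47.56 ± 3.92 RPKM in Col clf and did not pass.

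Of 17 hormone and stress genes, 6 (35.3%) were higher in C24 clf, near the 31.8% of all genes tested, and 6 (35.3%) were lower, against 12.7%. The jasmonate-induced storage protein gene VSP2 had 34.72, 22.97 and 27.24 RPKM in C24 clf, 133.4, 95.96 and 101.3 RPKM in clf F1 and 146, 129.5 and 107.3 RPKM in Col clf. C24 clf lay apart from both others, 4.41-fold below Col clf (log2 difference -2.14 ± 0.16, limma adjusted p = 8.2e-07). AOC2 of jasmonate synthesis was lower too, with 85.36 ± 8.48 RPKM in C24 clf and 177.5 ± 67.7 RPKM in Col clf (SD, n = 3 each). UGT74F2, which glucosylates salicylate, and the peptide hormone gene RGF9 were also lower, with log2 differences of -1.58 ± 0.15 and -1.17 ± 0.18. The dehydration genes went opposite ways: RAB18 averaged 113.6 ± 24 RPKM in C24 clf and 54.96 ± 10.4 RPKM in Col clf, and RD22 57.74 ± 7.77 and 112.6 ± 11.4 RPKM in the same order. BIN2 averaged 100.3 ± 7.30 RPKM in C24 clf and 94.51 ± 2.96 RPKM in Col clf and did not pass (limma adjusted p = 0.36).

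The 12 cell wall genes mostly did not pass, with 2 (16.7%) called higher and 2 (16.7%) called lower in C24 clf. XTH6 averaged 181.4 ± 4.11 RPKM in C24 clf and 128.2 ± 3.59 RPKM in Col clf, opposite to its relative XTH7. The glycine-rich GRP23 averaged 204.2 ± 3.77 RPKM in C24 clf and 209 ± 3.73 RPKM in Col clf. Of the 93 genes without a common role, 26 (28.0%) were higher and 22 (23.7%) lower. The peroxidase gene PRXCB was higher by 1.11 ± 0.06 on the log2 scale and AT5G42530, a short gene with no role given here, by 1.70 ± 0.18. AT1G67865 was lower, with a log2 difference of -2.07 ± 0.10, as were AT1G29660 (-1.22 ± 0.07) and AT4G13575 (-1.14 ± 0.19), all past the limma threshold.

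The clf F1 mean was between the means of C24 clf and Col clf in 96 of the 170 genes, above both in 33 and below both in 41. The same split was not computed over all genes tested, so it is not read as a trait of these genes. In 74 of the 170 genes C24 clf and Col clf were not called different. Against the mid-parent, the arithmetic mean of both parents' fitted levels, 8 genes were higher and 15 lower in clf F1 by limma. That is 4.71% and 8.82% of the 170 genes, with a background of 0.37% and 6.36% among all genes tested and 0.446% and 3.93% among the highly expressed ones. With libraries of the same number blocked together the numbers were 26 higher and 36 lower, and 8 and 7 after quantile normalisation. Without clf F1 replicate 2 or without clf F1 replicate 3 only 6 genes passed, without clf F1 replicate 1 35 passed, without C24 clf replicate 3 10 passed and without C24 clf replicate 2 15 passed. Without the 3 libraries richest in AT3G41979 (Col clf replicate 2 and clf F1 replicates 2 and 3), which leaves 1 clf F1 library that is assumed to vary like the other groups, 0 passed, while 24 were higher and 33 lower at an unadjusted p below 0.05 with all libraries. The comparisons of clf F1 share its libraries.

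The genes above the mid-parent were ESM1, TGG2, PRP4, AT4G29020, OFP16, TGG1, DELTA-TIP and GPRI1. Of these, 4 passed against each parent as well: TGG1, TGG2, AT4G29020 and OFP16. Among all genes tested, 22 (0.123%) lay above both parents in this way. With the replicate block, PRP4, GPRI1 and AT3G22121 also lay above both. TGG2 had 754.2, 757.9 and 813 RPKM in clf F1, 534.5, 516.1 and 646.1 RPKM in C24 clf and 493.9, 492.6 and 524 RPKM in Col clf. Every clf F1 library lay above every parental one, and the difference from the mid-parent of 534.5 RPKM was 0.54 ± 0.07 on the log2 scale (limma adjusted p = 0.0035). TGG1 was higher by 0.35 ± 0.05 (limma adjusted p = 0.0046), but by 0.15 with an adjusted p of 0.406 after quantile normalisation. ESM1 was 1.7-fold above the mid-parent of 126.4 RPKM, with 214.9 ± 3.8 RPKM in clf F1, 24.38 ± 4.0 RPKM in C24 clf and 228.4 ± 18.5 RPKM in Col clf (SD, n = 3 each), so the hybrid lay near Col clf. OFP16, an ovate family repressor, had 35.14, 44 and 42.07 RPKM in clf F1, 29.2, 31.11 and 28.98 RPKM in C24 clf and 30.88, 28.39 and 34.85 RPKM in Col clf (0.39 ± 0.08 above the mid-parent). GPRI1 (GLK1), which activates chloroplast genes, was 0.24 ± 0.06 above the mid-parent with an adjusted p of 0.049. Without clf F1 replicate 2 or 3 the calls of PRP4, AT4G29020, OFP16, DELTA-TIP and GPRI1 were lost, with log2 differences of 0.21 to 0.40. That of OFP16 was also lost without C24 clf replicate 3. Those of DELTA-TIP and GPRI1 were lost without most single libraries: DELTA-TIP kept its call only without clf F1 replicate 1, and GPRI1 only without that library or Col clf replicate 2. Quantile normalisation ended the calls of DELTA-TIP, GPRI1 and PRP4 too.

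The genes below the mid-parent were led by AT2G25510, AT5G42530, DOT1, BGLU18 and GRP3S. AT2G25510, with no role given here, had 77.64, 87.5 and 76.93 RPKM in clf F1, 184.8, 244.6 and 198.3 RPKM in C24 clf and 112.5, 124 and 174.9 RPKM in Col clf. All clf F1 libraries lay below all parental ones, and the difference from the mid-parent was -1.08 ± 0.13 (limma adjusted p = 0.0016). AT5G42530 had 198.9, 230.9 and 216.2 RPKM in clf F1, 603.4, 758.8 and 670.7 RPKM in C24 clf and 159.8, 188.6 and 294.2 RPKM in Col clf, so the hybrid overlapped Col clf and lay 2.05-fold below the mid-parent (-1.03 ± 0.16, limma adjusted p = 0.0065). DOT1 had 28.23, 24.91 and 26.7 RPKM in clf F1, 32.48, 28.92 and 34.38 RPKM in C24 clf and 46.89, 51.58 and 51.98 RPKM in Col clf (-0.61 ± 0.07 against the mid-parent, limma adjusted p = 0.0016). Below both parents by limma were 8 genes, against 164 (0.92%) of all genes tested. They were DOT1, AT2G25510, AT4G29030, the lipid transfer gene LTP6, the phosphoenolpyruvate carboxykinase gene PCK1 and the glycine-rich protein genes GRP-3, GRP3S and GRP23. With the replicate block, PEL3, GRP2B, GSH2, AT1G28400 and BGLU18 also lay below both. Over all genes tested, the median log2 difference of clf F1 was -0.18 from C24 clf, -0.05 from Col clf and -0.12 from the mid-parent. AT4G29030, LTP6, GRP-3, PCK1, GRP23 and DOT1 lay near the first of these, at -0.22 to -0.25 from C24 clf. Calls of about this size can depend on the scaling. GRP23 averaged 172.4 ± 12.1 RPKM in clf F1, 204.2 ± 3.77 RPKM in C24 clf and 209 ± 3.73 RPKM in Col clf (SD, n = 3 each). The calls of BGLU18, GRP3S, MPK4, AT4G29030 and AT1G10682 against the mid-parent were lost without clf F1 replicate 2 or 3, with log2 differences of -0.24 to -0.42. Leaving out C24 clf replicate 3 ended those of GRP3S, MPK4 and AT1G10682, C24 clf replicate 2 those of BGLU18, GRP3S and AT1G10682, C24 clf replicate 1 that of BGLU18, Col clf replicate 1 those of BGLU18 and AT1G10682, and Col clf replicate 3 that of AT1G10682.

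Against Col clf, 26 of the 170 genes were higher and 26 lower in clf F1 (background 4.98% and 7.03% of all genes tested, 3.64% and 5.33% of the highly expressed ones), or 42 and 44 with the replicate block. Against C24 clf, 44 were higher and 47 lower (background 6.66% and 35.8% of all genes tested, 6.43% and 29.7% of the highly expressed ones), or 53 and 61 with the replicate block and 50 and 22 after quantile normalisation. Of the 9 glucosinolate genes, 7 were higher in clf F1 than in Col clf and 0 lower. SEP3 was higher than in Col clf and lower than in C24 clf, with log2 differences of 1.22 ± 0.11 and -1.08 ± 0.11 (limma adjusted p = 2.5e-05 and 3.8e-05), so the hybrid's level differed from each parent. IPMI2 and BCAT4 were higher than in Col clf by 0.71 ± 0.16 and 0.79 ± 0.20, and passed no longer without Col clf replicate 3, at 0.65 and 0.63. BCAT4 was also lost without Col clf replicate 2, at 0.81, and without clf F1 replicate 1, at 0.57. AT1G67865, VSP2 and ESM1 were higher than in C24 clf by 1.43 ± 0.10, 1.93 ± 0.16 and 3.10 ± 0.10, and clf F1 did not pass against Col clf in VSP2 and ESM1 (limma adjusted p = 0.45 and 0.65).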

How the data were processed

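mRNA and H3K27me3 libraries were grouped by their labels. The deposited mRNA values are RPKM, 1 value per gene and library, a unit read from the values (library sums 728341 to 767004). They hold no counts, so no count test was used, and read depth was not derived here. The submitters' processing notes name TopHat, Bowtie and TAIR10 and give neither version nor role. Which caller made the peaks, whether an input was used and whether counting used strand: not given in the sources used here. Each library has its own deposited peak list, each peak with the authors' count of tags, score and fold enrichment, and every score was at least 50.

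Each mRNA file has 34133 lines. Gene IDs that occur more than once (567 IDs on 1141 lines) were dropped, and 744 genes had no position. Gene bodies were taken from RefSeq (assembly TAIR10.1, the peaks being on TAIR10), and no RefSeq coordinate is printed. The 17819 genes that reached 1 RPKM in 3 or more libraries, among them all 170, were fitted as log2(RPKM + 1) with limma 3.58.1 (R 4.3.3), a trended prior and a shared spread, with Benjamini-Hochberg adjusted p below 0.05 as the threshold. Differences are on this scale, tests are two-sided, and the procedure was tested on simulated data. The mid-parent had a delta-method standard error. Whether replicates are separate cultures is not in the labels. The p-values therefore measure only the spread between these libraries, and that may be technical.

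Same-numbered libraries of different groups deviated together (9 correlations of 0.17 to 0.43, against -0.28 to 0.00 for other pairs), so the number, taken from the labels, was read as pairing the samples. Calls and p-values are from the fit without the block, and blocked values are given beside counts. Alternatives were other pseudocounts, filters, scaling, overlaps and peak scores, the replicate block and leaving out libraries.

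The 170 genes, the lists (28 Polycomb genes, 27 known targets, 7 green shoot and 8 root markers) and the roles were chosen with earlier results of these data known. Named genes are the 15 highest in level, the 10 most covered, up to 8 called each way against Col clf and the mid-parent and 3 each way for clf F1 against each parent, those without wild-type peaks, those at the thresholds and up to 4 per word class. Examples within roles were added after their values were seen. A gene that the rule names is not reported here. Strand, genome sequence and product descriptions were not used here. The planned promoter motifs were therefore not searched, coverage runs from the lower to the higher coordinate and word classes rest on symbols and synonyms.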

Additional observations from a re-analysis of the deposited data

How the results depend on the processing

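Called genes of C24 clf against Col clf stayed at 86 to 99 of 170 when any 1 library was left out. The same range was 6 to 35 for clf F1 against the mid-parent, 35 to 50 against Col clf and 66 to 90 against C24 clf. The mid-parent count was 12 with no filter on low values, 15 after quantile normalisation, 62 with the replicate block and 0 without the 3 libraries richest in AT3G41979, a setting chosen after seeing the data. That setting gave 12 genes against Col clf and 29 against C24 clf, and the block gave 86 against Col clf and ended none of the 44 named differences. It gave 116 for C24 clf against Col clf and 114 for clf F1 against C24 clf, and ended no call of the 170 genes in any of the 4 comparisons. Of 660 values of these 44 differences under the alternatives, 577 kept their call, 83 lost it and 0 changed direction, and the 16 of C24 clf against Col clf all kept theirs. The gene number was 108 with 50% of the body covered, 319 at 10 RPKM, 75 at 50 RPKM and 170 to 175 without 1 mRNA library. Genes in both wild-type lists became 96 to 144 in C24, 92 to 149 in F1 and 53 to 130 in Col when 1 list was left out. Leaving out libraries also lowers the sample number, and the cause of these changes was not tested. Read depth was not derived from the RPKM values, and 3 or fewer libraries a group limit the precision.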
